A study of Mus musculus with 13 samples.

Results

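Microglia from 5xFAD mice that received a circular RNA were compared with microglia from 5xFAD mice without a working PKR gene, using the 8 samples of these groups, 4 of each, out of 13 samples in the series. The samples of each group were taken by their labels alone, and no measured value entered that step. Earlier results of these data were known when the groups were chosen. Of 19737 genes in the table, the 10817 that averaged 1 FPKM or more across the series were tested. FPKM is the number of fragments scaled by the gene's length and the sample's depth, and differences are given as circRNA minus PKR knockout on the log2(FPKM + 1) scale unless a ratio is named.

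PKR, encoded by Eif2ak2, is a kinase that dimerises on double-stranded RNA and phosphorylates the translation factor eIF2alpha, which slows protein synthesis and starts the integrated stress response. It also takes part in signalling to NF-kappaB and to stress-activated kinases. Circular RNAs with short double-stranded regions can bind PKR and hold it inactive, and the comparison asks how microglia differ between delivery of such a circle and deletion of the gene. Microglia are the resident macrophages of the brain, and in models of amyloid deposition they turn on lysosomal, lipid and inflammatory genes.

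The 5xFAD mouse carries transgenes for mutant human amyloid precursor protein and presenilin, driven in neurons by the Thy1 promoter, and all 8 samples share this background. The circRNA group was treated with AAV PHP.eB, an adeno-associated virus that crosses the blood-brain barrier, carrying circPOLR2A. The series' design text gives the construct as circPOLR2A(9,10) for all 4 mice, while the treatment labels read circPOLR2A(9,10), circPOLR2A(9,11), circPOLR2A(9,12) and circPOLR2A(9,13) for replicates 1 to 4, and the samples were grouped by their titles. According to the series text the RNA was aimed at neurons, so the microglia need not have carried it. The PKR knockout group is labelled 5xFAD and PKR KO, and its labels name no virus. The groups may therefore differ in the virus as well as in PKR, and these cannot be told apart. For context, values are also given from 5xFAD mice with AAV PHP.eB-EGFP (n = 2) and wild type mice with the same EGFP virus (n = 3). The labels call the samples microglia, and the extraction text speaks of total RNA from tissues. Age, sex, the region taken and any sorting of the cells are not given in the sources used here, nor is the part of the PKR gene that was deleted. Library names are given for the knockout samples only, so batch of preparation and knockout cannot be told apart.

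Depth recovered from the values ran from 45.3 to 52.9 M fragments with circRNA and from 57.8 to 69.9 M in PKR knockout, without overlap. All 10 microglia-defining genes were detected in every sample, and their summed FPKM was 3151 to 4677 with circRNA and 3486 to 3747 in PKR knockout. PKR knockout replicate 2 stood apart in Y-linked genes. Ddx3y was at 0.00550 FPKM in it against 6.64 to 9.06 in the other 12 samples, and Uty was listed at 0 against 2.11 to 3.07. The labels name no sex, and results are therefore also given without that sample. Markers of other cells moved with the groups: all 10 tested oligodendrocyte markers had a higher level with circRNA, none was called by limma or by voom on recovered fragments, 5 had an unadjusted p below 0.05, and their summed FPKM was 325 to 832 with circRNA and 239 to 396 in PKR knockout. Of 10 astrocyte markers 9 had a positive difference (median 0.47), with 3 at an unadjusted p below 0.05 and none called by limma or voom. Among all 10817 genes tested, 2756 had an unadjusted p below 0.05, and such counts here and below stand beside that share. Summed astrocyte markers were at 159 to 300.0 and 163 to 262 FPKM, endothelial and mural markers at 70.5 to 135 and 67.9 to 109, neuronal markers at 27.3 to 75.9 and 37.1 to 62.0, border macrophage and monocyte markers at 16.8 to 29.6 and 16.9 to 22.6, and erythrocyte markers at 3.90 to 129 and 3.60 to 139. Lymphocyte and neutrophil markers summed to 1.97 to 8.15 and 1.91 to 16.9 FPKM, and 1 of the 12 was at 0 in every knockout sample. In bulk RNA, fewer cells of a type and less RNA per cell cannot be told apart. The part of these markers in the results below was not tested beyond a fit that carried their mean as a covariate.

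The 2 groups differed in 670 genes, 6.19% of those tested (limma, Benjamini-Hochberg adjusted p below 0.05), of which 463 were higher with circRNA (4.28%) and 207 were lower (1.91%). The higher genes had a median difference of 0.32, and 2 of them passed 2-fold. The lower genes had a median of -0.41, and 25 passed 2-fold. Set beside 5xFAD EGFP, the called lower genes had a median of -0.07 with circRNA and 0.37 in PKR knockout, and the called higher genes had medians of 0.13 and -0.20. Both of these comparisons use the same 2 EGFP samples. In 657 of the 670 genes the 4 circRNA samples did not overlap the 4 knockout samples. Over all genes tested, circRNA lay above PKR knockout in every sample for 15.1% and below in every sample for 4.44%.

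The split between higher and lower genes depended on how the samples were scaled. The median difference of all genes was 0.08, and 69.1% of the calls were higher with circRNA. Scaling by the median ratio between samples moved that median to -0.02 and gave 148 higher and 697 lower of 10817 genes, so 17.5% of these calls were higher. Counts of list members under that scaling, given below, stand beside these. All 207 lower genes kept their call under that scaling, against 148 of the 463 higher genes. Among the higher genes named below, Eif2s1, P2ry13, Sod2, Tlr3, Cyp51, mt-Nd3, Ndufb10, Ndufb6, Atp5j, Psma7, Psmd12, Rpl15, Hnrnpdl, Mcm2, Mcm5, Hdac2, Npc1 and Sap18b lost their call under it. Rescaling to equal FPKM sums gave 49.6% higher, and quantile normalization 32.1%. Gene lists are therefore also given by their median minus that of all genes, called the relative median below. Of the genes named below that were not called, Ccl4, Tlr2, Spp1 and Hspa5 were called lower under median-ratio scaling (limma adjusted p = 0.0433, 0.0319, 0.0321 and 0.0484).

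Calls followed the GC content of the exons. Genes called higher with circRNA had a median GC content of 43.3%, genes called lower 54.3%, and all genes tested 49.6%. In the quintile of genes with the least GC (31.9% to 43.8%), 244 genes were higher with circRNA and 9 lower. In the quintile with the most GC (55.3% to 70.7%), 8 were higher and 89 lower. The median difference fell from 0.16 through 0.11, 0.06 and 0.02 to -0.01 across the quintiles. Relative to 5xFAD EGFP the knockout medians ran from -0.08 in the lowest quintile to 0.08 in the highest, and the circRNA medians from 0.08 to 0.06. The trend was not equal between replicates. The lowest quintile minus the highest was 0.13, 0.12, -0.06 and 0.07 in circRNA replicates 1 to 4 and -0.22, -0.13, -0.12 and 0.01 in knockout replicates 1 to 4, so circRNA replicate 3 and knockout replicate 4 each differed from the rest of their group. With the trends over GC content and exonic length removed, limma called 60 genes higher and 178 lower of 10643. Among them were 53 of the 463 higher and 121 of the 207 lower genes. Counts of list members with the trends removed, given below, stand beside the 60 and 178. Exonic length alone showed little of this, with medians between 0.06 and 0.10 over its quintiles. Whether the GC trend came from the cells or from library making was not tested.

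**Figure D1:**
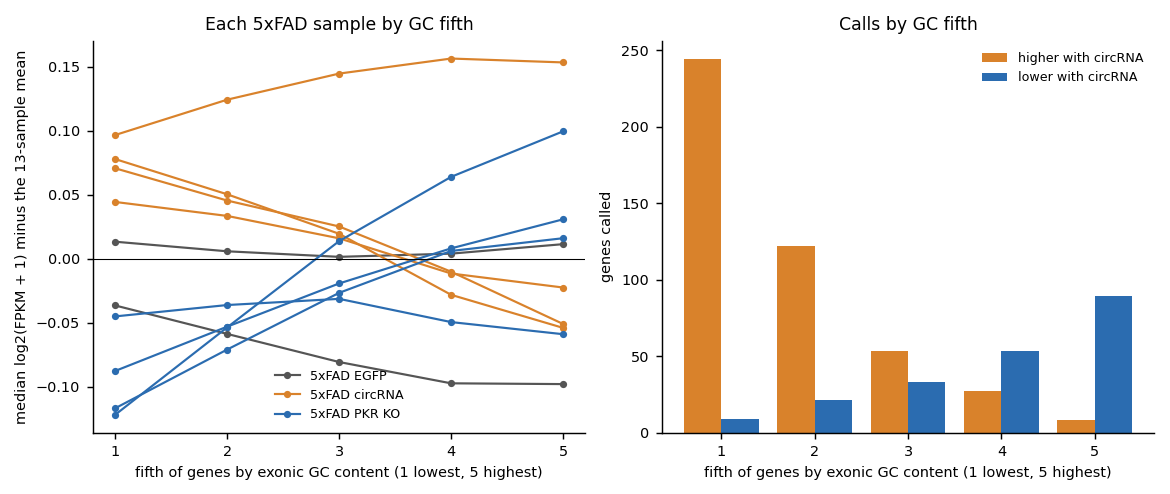
Left, median log2(FPKM + 1) of each 5xFAD sample relative to the gene's mean over 13 samples (vertical axis), by quintile of exonic GC content (horizontal axis). Right, number of genes called higher (orange) or lower (blue) with circRNA in each quintile. Higher calls dropped from 244 to 8 and lower calls climbed from 9 to 89 toward high GC. Knockout samples 1 to 3 climbed with GC content, and the circRNA samples fell with it except replicate 3.

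The call count also rested on single samples. Without circRNA replicate 1 it was 162, without circRNA replicate 3 it was 310, and without knockout replicates 1, 2 and 3 it was 147, 164 and 225. Without knockout replicate 2, the sample with no Y-linked signal, 84 genes were higher and 80 lower, and 82 and 80 of these were among the 463 and 207. Genes are named below from gene lists and from the largest differences, with the call without that sample where it changed.

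Eif2ak2, the gene deleted in the knockout (chromosome 17, 78852564 to 78882573, minus strand, GRCm38), was at 7.37, 7.48, 7.73 and 8.11 FPKM with circRNA and at 3.35, 4.61, 3.31 and 4.16 FPKM in PKR knockout. No knockout sample reached any circRNA sample, and reads of the gene were still counted in all 4 knockout samples, in a range that overlapped wild type (5.18, 5.23 and 4.14 FPKM). The difference was 0.85 (SE 0.09, limma adjusted p = 0.00147). It was called in all 21 alternatives, including the fit without knockout replicate 2 (limma adjusted p = 0.00207). In 5xFAD EGFP the gene stood at 6.49 and 6.59 FPKM, a difference of 0.20 for circRNA and -0.64 for the knockout.

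Around that kinase, 4 genes of the list of PKR and the integrated stress response were called, Eif2ak2 itself included. None of the other eIF2alpha kinases was among them. Of 34 tested members, 2 were higher and 2 lower with circRNA, or 5.88% each way against 4.28% and 1.91% of all genes. The 2 higher members were Eif2ak2, deleted by design in the knockout group, and Eif2s1, so the higher share rests partly on the deletion. The list's median was 0.06 against 0.08 for all genes. Among the eIF2alpha kinases, only Eif2ak2 was called. Eif2ak3 (PERK, which senses unfolded proteins in the endoplasmic reticulum) differed by -0.04 and Eif2ak4 (GCN2, which senses missing amino acids) by -0.11, and both overlapped between the groups. Eif2s1, which encodes eIF2alpha itself, was at 3.94, 4.08, 4.53 and 3.75 FPKM with circRNA, against 2.84, 3.36, 3.11 and 3.20 FPKM in PKR knockout. This difference of 0.30 (SE 0.08, limma adjusted p = 0.0474) was lost with the GC and length trends removed and without knockout replicate 2 (limma adjusted p = 0.327 and 0.0864).

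The 2 lower members of this list were Ppp1r15a and Atf3. Ppp1r15a encodes GADD34, the inducible subunit that guides a phosphatase to eIF2alpha and so ends the response. Its FPKM was 13.6, 11.8, 11.4 and 10.7 with circRNA and 27.6, 26.7, 21.9 and 23.7 in PKR knockout, with the lowest knockout sample far above the highest circRNA sample. The difference was -1.01 (SE 0.13, limma adjusted p = 0.00284). Atf3, a stress-induced transcription factor, was at 90.5, 76.7, 66.4 and 62.6 FPKM with circRNA and at 149, 161, 126 and 154 FPKM in PKR knockout. It differed by -0.99 (SE 0.16, limma adjusted p = 0.00794). The central transcription factor of the response, Atf4, was at 22.8, 23.4, 28.01 and 21.3 FPKM with circRNA, against 30.4, 27.9, 27.0 and 22.0 FPKM in PKR knockout. These ranges overlapped, and the difference was -0.16 (SE 0.11, limma adjusted p = 0.382). Ddit3, the CHOP gene downstream of Atf4, differed by -0.07 (SE 0.09, limma adjusted p = 0.661). Over the 15 tested targets of the response, 1 was called (6.67%, against 6.19% of all genes called either way), and the median was 0.03.

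**Figure D2:**
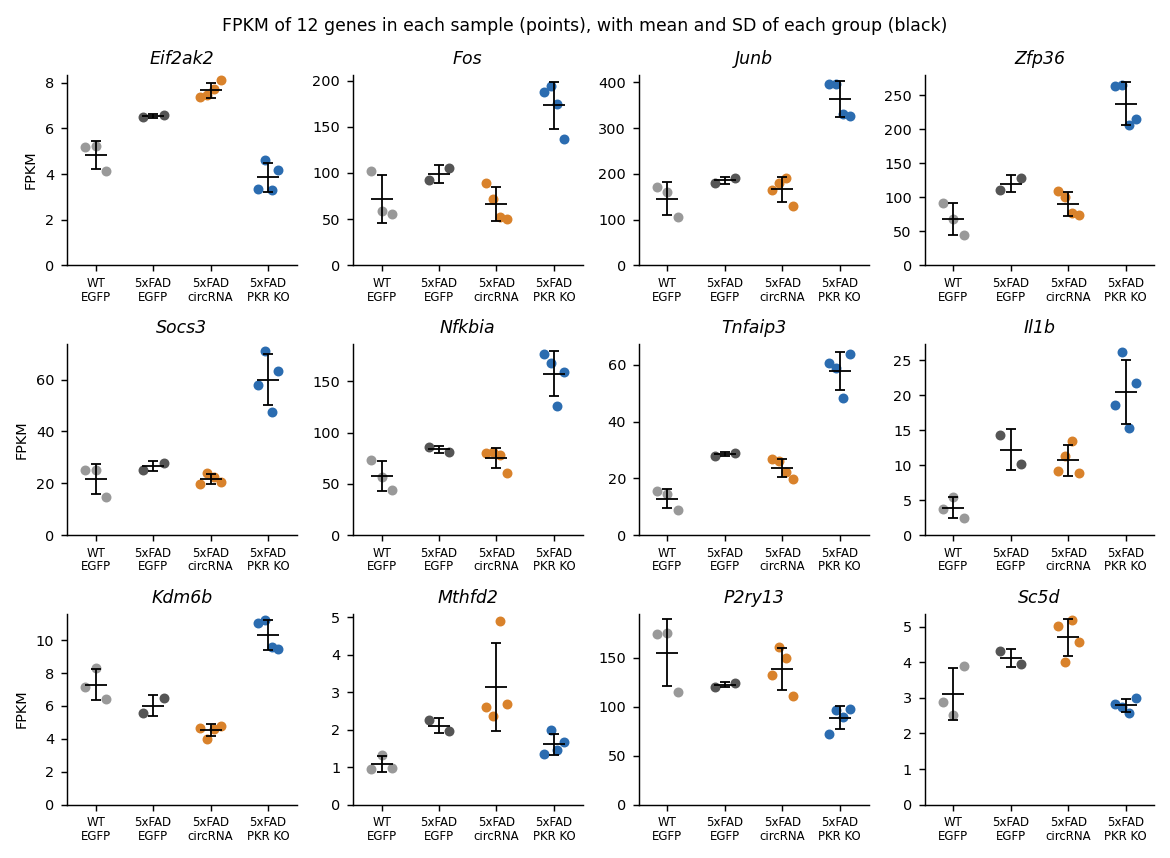
FPKM (vertical axes, from 0) of 12 genes in each sample (points) of the 4 groups, with the mean and SD of the group in black. The PKR knockout samples lie above all other 5xFAD samples for Fos, Junb, Zfp36, Socs3, Nfkbia, Tnfaip3, Il1b and Kdm6b, and below all of them for Eif2ak2, P2ry13 and Sc5d.

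Immediate-early genes were the group with the most lower calls. These genes encode mainly transcription factors that are switched on within minutes of a stimulus, without new protein synthesis, and AP-1 is the dimer formed by the Fos and Jun families. Of 43 tested members of the immediate-early and AP-1 list, 20 were lower with circRNA (46.5%, against 1.91% of all genes) and none higher by limma, with none higher at an unadjusted p below 0.05 or by voom either. The median was -0.48, which is 0.56 below that of all genes. In 24 of the 43, every circRNA sample lay below every knockout sample, against 4.44% of all genes.

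Fos was at 89.5, 72.3, 52.8 and 50.6 FPKM with circRNA, against 188, 194, 175 and 137 FPKM in PKR knockout. Fosb was at 22.6, 15.9, 12.5 and 13.0 FPKM with circRNA, against 56.5, 45.7, 50.5 and 32.8 FPKM in PKR knockout. Neither gene overlapped between the groups, and circRNA replicate 1 was the highest of its group in both. The differences were -1.40 (SE 0.22) for Fos and -1.49 (SE 0.23) for Fosb, each with a limma adjusted p of 0.00710. Junb, their partner in AP-1, was at 166, 180, 191 and 129 FPKM against 397, 397, 330 and 327 FPKM, a difference of -1.13 (SE 0.17, limma adjusted p = 0.00560). Jun differed less, by -0.71 (SE 0.17, limma adjusted p = 0.0367), and was not called with the trends removed or without knockout replicate 2 (limma adjusted p = 0.0588 and 0.0910).

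Maff, a small Maf protein, was at 5.99, 6.01, 6.92 and 4.65 FPKM with circRNA, against 14.8, 15.1, 11.4 and 11.5 FPKM in PKR knockout. It differed by -1.04 (SE 0.11, limma adjusted p = 0.00147). Ier2, an early-response nuclear protein, was at 43.9, 46.8, 50.6 and 30.1 FPKM with circRNA, against 127, 123, 84.2 and 103 FPKM in PKR knockout, a difference of -1.34 (SE 0.18, limma adjusted p = 0.00307). In both genes the lowest knockout sample was well above the highest circRNA sample. Csrnp1, an early-response nuclear factor, differed by -0.88 and the orphan nuclear receptor Nr4a3 by -0.64 (SE 0.11 and 0.09, limma adjusted p = 0.00284 and 0.00479). Csrnp1 shares its strand and part of its locus with Cx3cr1, and the setting used to count overlapping genes is not given in the sources used here. Egr1, a zinc finger factor induced by growth factor signals, differed by -0.98 (SE 0.21, limma adjusted p = 0.0235), and its call was lost with the trends removed and without knockout replicate 2 (limma adjusted p = 0.0688 and 0.0740). Cdkn1a, the cyclin-dependent kinase inhibitor p21, was at 4.07, 5.43, 4.80 and 4.22 FPKM against 9.69, 8.27, 10.6 and 7.47 FPKM, a difference of -0.82 (SE 0.11, limma adjusted p = 0.00290).

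Kdm6b had the smallest adjusted p of all genes. It encodes the histone demethylase JMJD3, which removes methyl groups from lysine 27 of histone H3 and is induced in activated macrophages. Its FPKM was 4.65, 3.99, 4.63 and 4.80 with circRNA and 11.1, 11.2, 9.59 and 9.48 in PKR knockout, and 5.55 and 6.47 in 5xFAD EGFP. The knockout samples were the highest and the circRNA samples the lowest of the 3 groups, without overlap. The difference between circRNA and PKR knockout was -1.04 (SE 0.09, limma adjusted p = 0.000472). Without knockout replicate 2 the limma adjusted p was 0.00207.

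Junb overlaps Prdx2 in the annotation, as Ppp1r15a does Tulp2 and Dusp1 does Ergic1, so reads of these pairs may not be separate. Removing the GC trend changed these counts little. The immediate-early list has a median GC content of 54.4%, on the side of the trend where genes were lower with circRNA. After removal of the GC and length trends 19 members were still called lower and the median was -0.54, which is 0.54 below that of all genes. Under median-ratio scaling 26 were lower. Leaving out 1 sample at a time gave 12 to 18 lower members, with 12 when knockout replicate 1 or knockout replicate 2 was left out. Relative to 5xFAD EGFP the list's median was -0.14 with circRNA and 0.34 in PKR knockout, both resting on the same 2 EGFP samples.

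**Figure D3:**
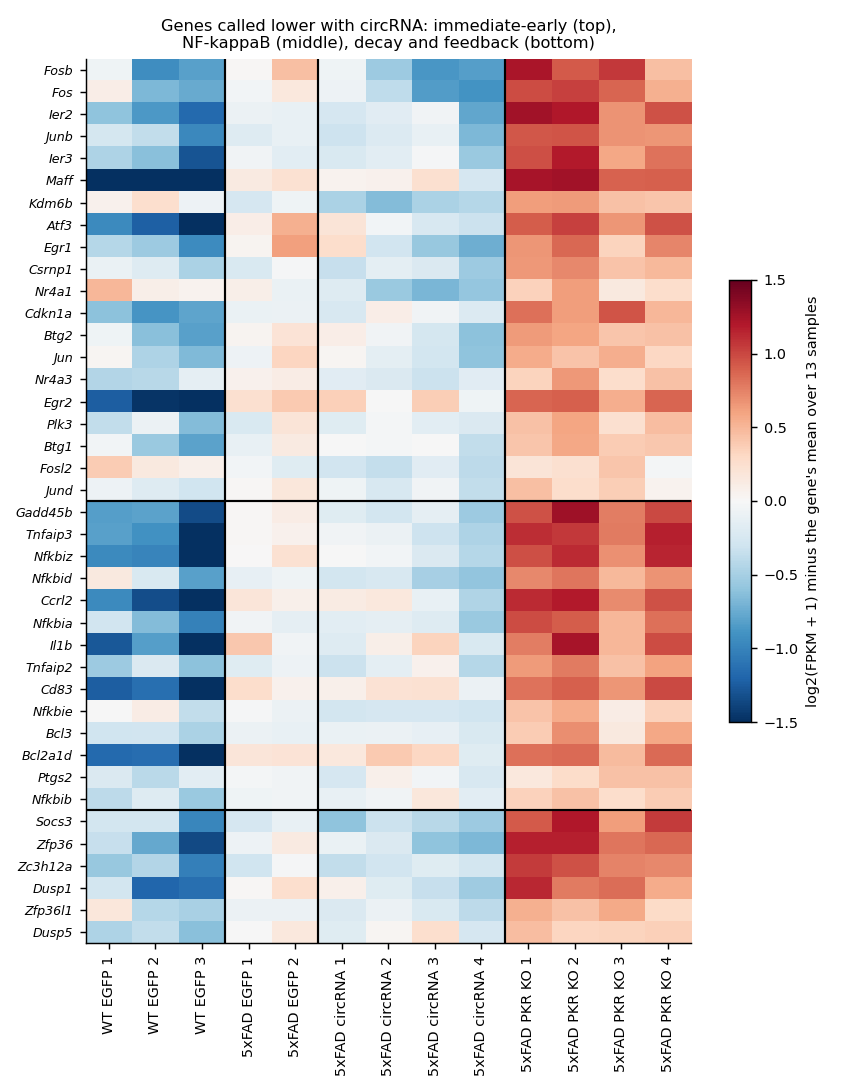
Log2(FPKM + 1) of the 40 genes called lower with circRNA in 3 gene lists, minus the gene's mean over 13 samples (colour), for each sample (columns). The 20 immediate-early genes are at the top, 14 NF-kappaB genes in the middle and 6 decay and feedback genes at the bottom. The 4 knockout columns on the right are red for nearly every gene, whereas the circRNA and 5xFAD EGFP columns are near white or blue.

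NF-kappaB is a family of dimeric transcription factors held in the cytoplasm by inhibitors of the IkappaB family, whose genes the factor itself turns on as negative feedback. Of 39 tested genes of the NF-kappaB list, 14 were lower with circRNA and 1 was higher, a total of 38.5% called against 6.19% of all genes. The median was -0.24, which is 0.32 below that of all genes. The limma calls fell among the inhibitors and targets, and the roles were not tested against each other. Of 10 inhibitors and feedback genes 7 were lower, with a median of -0.61. Of 15 targets 7 were lower and 1 was higher, with a median of -0.47. None of the 5 subunits and none of the 9 kinases and adaptors was called by limma, and their medians were -0.08 and 0.01. All 5 subunits had a negative difference, as did 4 of the 9 kinases and adaptors. At an unadjusted p below 0.05, 1 subunit was lower, and 1 kinase or adaptor was higher and 1 lower, while voom called 1 subunit lower.

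Promoters are shown for 3 of the lower genes because they carry the kappaB letters GGNNTTTCC close to the start. The letters were searched on both strands of the 250 bases before the RefSeq start (build GRCm38.p6), and the capitals mark the matches. These are Nfkbia, Tnfaip3 and Ccrl2, on the minus strand at chr12:55492648-55492897, chr10:19015411-19015660 (the first of 2 RefSeq starts) and chr9:111057519-111057768 (the first of 3).
Nfkbia: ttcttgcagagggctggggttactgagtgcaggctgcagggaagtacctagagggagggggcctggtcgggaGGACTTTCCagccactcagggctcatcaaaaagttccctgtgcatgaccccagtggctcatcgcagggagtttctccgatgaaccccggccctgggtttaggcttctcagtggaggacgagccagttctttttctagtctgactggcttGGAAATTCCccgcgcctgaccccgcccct
Tnfaip3: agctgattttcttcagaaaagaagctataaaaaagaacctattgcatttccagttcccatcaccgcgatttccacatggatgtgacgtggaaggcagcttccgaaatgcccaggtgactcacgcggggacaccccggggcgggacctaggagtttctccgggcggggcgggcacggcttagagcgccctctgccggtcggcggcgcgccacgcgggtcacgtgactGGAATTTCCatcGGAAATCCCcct
Ccrl2: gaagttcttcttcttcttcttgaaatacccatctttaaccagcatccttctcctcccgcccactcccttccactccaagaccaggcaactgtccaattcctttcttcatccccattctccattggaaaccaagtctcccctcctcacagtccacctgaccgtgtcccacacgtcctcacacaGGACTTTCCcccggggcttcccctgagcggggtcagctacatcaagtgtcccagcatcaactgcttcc
Of the 207 lower genes 164 had a promoter record, and 14 of these (8.54%) held GGNNTTTCC, against 13 of 360 higher genes (3.61%) and 432 of all 8567 genes with a record (5.04%). Of the 19 genes with a record that were lower by at least 2-fold, 4 held it, the 3 shown and Ier3. TATAAA was found in 17 of 164 lower genes (10.4%), 20 of 360 higher genes (5.56%) and 6.08% of all. The cAMP response element TGACGTCA was in 3.05%, 3.06% and 2.80%, the AP-1 letters TGANTCA in 4.27%, 4.17% and 3.93%, and the CArG box in 1.22%, 1.11% and 1.18%. These shares describe letters in a window and carry no test.

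Nfkbia, the inhibitor IkappaB-alpha, was at 80.1, 81.0, 77.8 and 60.3 FPKM with circRNA, against 176, 168, 126 and 159 FPKM in PKR knockout. It differed by -1.06 (SE 0.16, limma adjusted p = 0.00603). Its 2 matches begin 29 and 178 bases before the start. Tnfaip3 encodes A20, an enzyme that edits ubiquitin chains and shuts off signalling to NF-kappaB. It was at 26.7, 26.1, 22.2 and 19.9 FPKM against 60.7, 58.8, 48.3 and 63.6 FPKM, a difference of -1.25 (SE 0.15, limma adjusted p = 0.00284), and its matches begin 12 and 24 bases before the RefSeq start. That start and nearly all of the printed window lie inside the gene's span in the GENCODE annotation (chr10:19000910-19015657). Ccrl2, a chemerin-binding receptor induced in activated macrophages, was at 18.6, 19.2, 15.7 and 12.2 FPKM against 38.3, 40.2, 28.7 and 34.2 FPKM, a difference of -1.07 (SE 0.17, limma adjusted p = 0.00710). Its match begins 68 bases before the start. None of the 3 overlapped between the groups, and circRNA replicate 4 was the lowest of its group in each.

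Nfkbiz and Nfkbid encode nuclear members of the IkappaB family, which alter the choice of target genes. Nfkbiz was at 31.7, 30.7, 27.1 and 23.3 FPKM with circRNA, against 62.7, 70.1, 51.7 and 71.1 FPKM in PKR knockout, a difference of -1.15 (SE 0.15, limma adjusted p = 0.00284). Nfkbid differed by -1.07 (SE 0.16, limma adjusted p = 0.00654). Gadd45b, an NF-kappaB target that takes part in growth arrest and survival, was at 4.84, 4.49, 5.07 and 3.55 FPKM against 11.9, 15.1, 10.4 and 12.2 FPKM. That difference was -1.28 (SE 0.14, limma adjusted p = 0.00147), with the knockout samples more than 2 times any circRNA sample. Tnfaip2, induced by tumour necrosis factor, differed by -0.82 (SE 0.12, limma adjusted p = 0.00477).

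The cytokines of the NF-kappaB list were less uniform. Il1b, which encodes interleukin-1beta, was at 9.10, 11.3, 13.5 and 8.82 FPKM with circRNA, against 18.6, 26.1, 15.3 and 21.8 FPKM in PKR knockout. The groups did not overlap, though knockout replicate 3 and circRNA replicate 3 were close, and the difference was -0.87 (SE 0.21, limma adjusted p = 0.0329). It was not called without knockout replicate 2 (limma adjusted p = 0.0993). Tnf was at 12.1, 12.6, 11.1 and 9.82 FPKM against 17.7, 29.3, 12.1 and 26.4 FPKM, and knockout replicate 3 lay within the circRNA range. Its difference of -0.78 (SE 0.25) was not called (limma adjusted p = 0.0790), though 4 of 21 alternatives called it, nor was that of Il1a, -0.47 (SE 0.17, limma adjusted p = 0.111). The subunits Nfkb1, Rel and Rela differed by -0.07, -0.12 and -0.08, with limma adjusted p-values of 0.602, 0.602 and 0.639. Sod2, the mitochondrial superoxide dismutase, was the 1 higher member, at 0.33 (SE 0.08, limma adjusted p = 0.0314), and lost its call with the trends removed and without knockout replicate 2 (limma adjusted p = 0.0641 and 0.0835).

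With the GC and length trends removed, 15 NF-kappaB genes were lower and none higher by limma, and the median was -0.31, which is 0.30 below that of all genes. Leaving out 1 sample gave 9 to 13 lower members, the fewest without knockout replicate 2.

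Feedback regulators of cytokine signalling and messenger RNA decay moved the same way in part. Of 17 tested genes of that list 6 were lower and 1 higher, or 35.3% and 5.88% against 1.91% and 4.28% of all genes, with a median of -0.13, which is 0.21 below that of all genes. Zfp36 encodes tristetraprolin, which binds AU-rich elements and sends cytokine messenger RNAs to decay. It was at 109, 101, 76.9 and 73.4 FPKM with circRNA, against 264, 265, 206 and 214 FPKM in PKR knockout. The ranges were far apart, with a difference of -1.40 (SE 0.20, limma adjusted p = 0.00477). Zc3h12a encodes regnase-1, an RNase for similar targets, and was at 6.79, 7.26, 7.89 and 7.29 FPKM against 19.9, 18.4, 15.8 and 15.6 FPKM. It differed by -1.14 (SE 0.12, limma adjusted p = 0.00147).

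Socs3, which inhibits signalling from interleukin-6 family receptors, was at 19.6, 23.9, 22.4 and 20.4 FPKM with circRNA, against 57.9, 70.9, 47.5 and 63.5 FPKM in PKR knockout. It differed by -1.42 (SE 0.16, limma adjusted p = 0.00167). Osm, which encodes oncostatin M, a ligand of that family, was at 9.62, 10.9, 10.7 and 7.94 FPKM against 23.2, 28.02, 18.01 and 24.0 FPKM. It differed by -1.16 (SE 0.17, limma adjusted p = 0.00522), so the ligand and this inhibitor were both lower with circRNA. Dusp1, a phosphatase that ends p38 and JNK signalling, differed by -1.07 (SE 0.20, limma adjusted p = 0.0149) and Zfp36l1, a relative of tristetraprolin, by -0.69 (SE 0.14, limma adjusted p = 0.0169). Zfp36l1 was at a limma adjusted p of 0.0509 without knockout replicate 2. Dusp5, which acts on ERK, differed by -0.41 (SE 0.11, limma adjusted p = 0.0436) and was not called without knockout replicate 2 (limma adjusted p = 0.0948). Spred1, an inhibitor of Ras signalling, was the higher member at 0.34 (SE 0.07, limma adjusted p = 0.0186), and its call was lost with the GC and length trends removed and without knockout replicate 2 (limma adjusted p = 0.219 and 0.0639). Leaving out 1 sample gave 3 to 6 lower members, with 3 without knockout replicate 1 and 4 without circRNA replicate 1, knockout replicate 2 or knockout replicate 3.

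**Figure D4:**
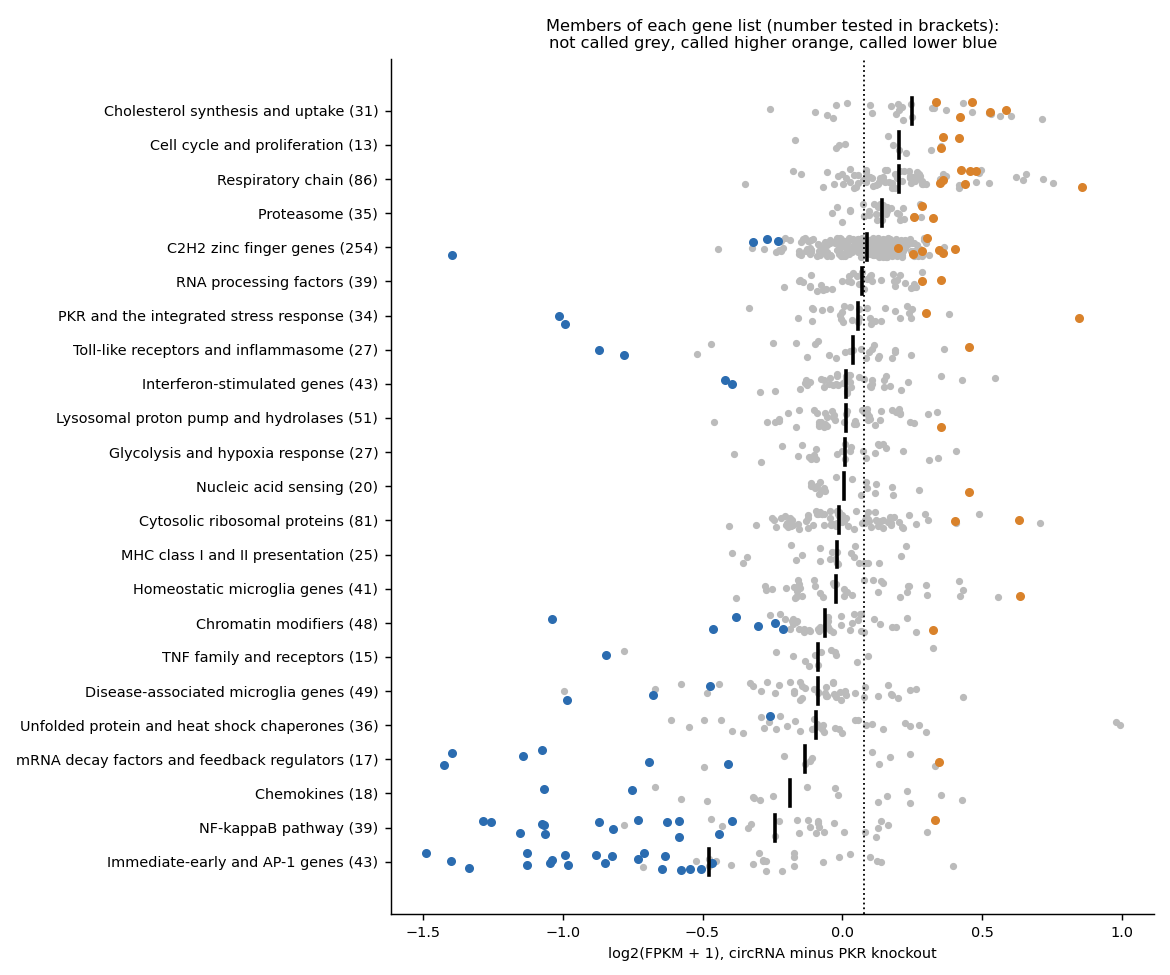
Difference in log2(FPKM + 1), circRNA minus PKR knockout (horizontal axis), for each tested member of 23 gene lists (points), with the list's median as a black bar and the median of all genes as a dotted line. Lower calls (blue) gather in the immediate-early, NF-kappaB and decay and feedback lists at the bottom, and the medians of the lists run from -0.48 to 0.25.

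Chemokine genes were called lower for 1 ligand and 1 receptor. Of 18 tested chemokine ligands and receptors these were Cxcl2 and Ccrl2, 11.1% against 1.91% of all genes, and the median was -0.19. Cxcl2, a neutrophil attractant, was at 1.35, 0.851, 0.599 and 0.439 FPKM with circRNA, against 2.38, 2.03, 2.23 and 1.44 FPKM in PKR knockout, a difference of -0.75 (SE 0.17, limma adjusted p = 0.0238). Its groups were close at 1.35 and 1.44 FPKM, and the call was lost without knockout replicate 2 (limma adjusted p = 0.0678). The abundant ligands Ccl3 and Ccl4 differed by -0.58 and -0.67 (SE 0.23 and 0.21) and were not called (limma adjusted p = 0.149 and 0.0775), though 1 and 3 of 21 alternatives called them. Ccl2 differed by -0.02 (SE 0.20, limma adjusted p = 0.953).

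Nlrp3, the sensor of the best known inflammasome, was at 14.8, 17.1, 18.5 and 13.5 FPKM with circRNA, against 27.99, 32.3, 26.0 and 26.1 FPKM in PKR knockout. The groups were apart, and the difference was -0.78 (SE 0.14, limma adjusted p = 0.0137). Together with Il1b it made the 2 lower calls among 27 Toll-like receptor and inflammasome genes, 7.41% against 1.91% of all genes. The 1 higher call there was Tlr3, the endosomal receptor for double-stranded RNA, at 7.88, 8.52, 8.16 and 6.97 FPKM against 5.19, 5.35, 5.73 and 5.64 FPKM. That difference of 0.45 (SE 0.10, limma adjusted p = 0.0240) was lost with the trends removed (limma adjusted p = 0.121) and without knockout replicate 2 (limma adjusted p = 0.0712). Tlr2 differed by -0.52 and Tlr4 by 0.19, and neither was called (limma adjusted p = 0.0660 and 0.427), though 5 of 21 alternatives called Tlr2 lower. The list's relative median was -0.04, and it changed sign without knockout replicate 2 and with the marker covariate. Tnfsf9, the ligand of the co-stimulatory receptor 4-1BB, was the 1 call among 15 TNF family genes (6.67% lower against 1.91% of all genes), at -0.85 (SE 0.15, limma adjusted p = 0.0128), and that list's relative median was -0.17.

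Other sensors of nucleic acids and the genes that interferon turns on had medians of 0.01 each, against 0.08 for all genes. Of 20 nucleic acid sensing genes Tlr3 alone was called, 5.00% against 4.28% of all genes higher, and none was with the trends removed or under median-ratio scaling. The cytosolic sensor Ifih1 (MDA5) and the adaptor Mavs differed by 0.12 and -0.08 (limma adjusted p = 0.360 and 0.624). Of 43 interferon-stimulated genes 2 were lower, 4.65% against 1.91% of all genes, and none was higher by limma or voom, with 4 higher at an unadjusted p below 0.05. They were Irf1, a transcription factor, at -0.42 (SE 0.11, limma adjusted p = 0.0491), and Oas2, a synthetase that signals to RNase L, at -0.39 (SE 0.10, limma adjusted p = 0.0458). Both lost their call without knockout replicate 2 (limma adjusted p = 0.140 and 0.109), and Oas2 also with the trends removed (limma adjusted p = 0.0505). Ifit3 and Isg15, which are typical interferon targets, differed by -0.02 and -0.24, with limma adjusted p-values of 0.956 and 0.272. Relative to 5xFAD EGFP the list's median was 0.31 with circRNA and 0.28 in PKR knockout, with the same 2 EGFP samples in both.

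Antigen presentation showed no call by limma among 25 genes of MHC class I and II, of which B2m differed by 0.23 and Cd74 by -0.18 (limma adjusted p = 0.420 and 0.683). At an unadjusted p below 0.05, 1 was higher and 3 were lower, and voom called none. Under median-ratio scaling limma called 2 lower, beside 697 of all 10817 genes. The relative median was -0.10, and its sign turned with the marker covariate.

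Genes of disease-associated microglia, the state that forms around plaques, were lower with circRNA in 3 of 49, or 6.12% against 1.91% of all genes. Under median-ratio scaling 6 were lower, beside 697 of all 10817 genes. With the trends removed 2 were, beside 178 of 10643. The list's median was -0.09 and its relative median -0.17 (-0.07 under quantile normalization). Of its genes 71.4% had a negative difference, against 31.5% of all genes. Gpnmb, a lysosomal and surface glycoprotein, was at 28.8, 31.0, 47.5 and 29.5 FPKM with circRNA, against 55.2, 78.7, 83.6 and 55.8 FPKM in PKR knockout. CircRNA replicate 3 was the highest of its group and still below every knockout sample, and the difference was -0.98 (SE 0.17, limma adjusted p = 0.0101). Dkk2, which encodes a secreted Wnt antagonist, was at 4.96, 5.14, 7.44 and 3.94 FPKM against 9.03, 8.13, 10.1 and 8.85 FPKM. It differed by -0.68 (SE 0.13, limma adjusted p = 0.0141). Csf1, a ligand of the receptor on which microglia depend, differed by -0.47 (SE 0.12, limma adjusted p = 0.0350) and was not called without knockout replicate 2 (limma adjusted p = 0.107) or with the trends removed (limma adjusted p = 0.0586).

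Spp1, the osteopontin gene, was at 107, 122, 241 and 89.8 FPKM with circRNA, against 189, 292, 405 and 204 FPKM in PKR knockout. CircRNA replicate 3 lay inside the knockout range, and the difference of -0.99 (SE 0.29) was not called (limma adjusted p = 0.0616), although 7 of 21 alternatives called it. Apoe, the main lipid carrier of the brain, was at 2463, 2386, 2554 and 2214 FPKM against 3344, 3671, 2585 and 3561 FPKM. The groups did not overlap, and the difference of -0.44 (SE 0.16) was not called (limma adjusted p = 0.106). The receptor Trem2 differed by -0.14, the protease inhibitor Cst7 by -0.17 and the integrin Itgax by -0.29, all with overlap and limma adjusted p-values of 0.643, 0.429 and 0.178. The lipid and lysosome genes of this list had no call among 22 by limma or voom, and 1 was higher and 1 lower at an unadjusted p below 0.05.

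Homeostatic microglia genes had 1 higher call among 41, 2.44% against 4.28% of all genes, and under median-ratio scaling none higher and 1 lower. Their relative median was -0.10, and 0.01 under quantile normalization. P2ry13, a purine receptor of resting microglia, was at 133, 161, 150.2 and 111 FPKM with circRNA, against 72.0, 96.6, 89.2 and 97.3 FPKM in PKR knockout. The difference was 0.64 (SE 0.16, limma adjusted p = 0.0408), and it was lost with the trends removed (limma adjusted p = 0.124) and without knockout replicate 2 (limma adjusted p = 0.0812). The neighbouring receptor P2ry12 was at 261, 312, 279 and 211 FPKM against 153, 179, 192 and 193 FPKM. It did not overlap either, yet its difference of 0.56 (SE 0.17) was not called (limma adjusted p = 0.0746), except in 4 of 21 alternatives. Both genes lie inside Med12l on the opposite strand. Tmem119 and Cx3cr1 differed by -0.16 and 0.23, with overlap in each and limma adjusted p-values of 0.689 and 0.408.

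Cholesterol genes had the highest median of the lists other than those of other-cell markers. Of 31 tested genes of cholesterol synthesis and uptake 5 were higher with circRNA, 16.1% against 4.28% of all genes in that direction. None was lower by limma or voom, and 1 was lower at an unadjusted p below 0.05. The median was 0.25, which is 0.17 above that of all genes. Sc5d, a desaturase late in the pathway, was at 5.02, 4.02, 5.20 and 4.58 FPKM with circRNA, against 2.83, 2.75, 2.59 and 3.01 FPKM in PKR knockout. It differed by 0.58 (SE 0.10, limma adjusted p = 0.00932). Dhcr7, which catalyses the last step, was at 4.01, 3.84, 4.25 and 3.81 FPKM against 2.95, 2.85, 2.20 and 2.91 FPKM. It differed by 0.42 (SE 0.08, limma adjusted p = 0.0113).

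Sc5d and Dhcr7 did not overlap between the groups and were the 2 cholesterol genes called with the GC and length trends removed (limma adjusted p = 0.0383 and 0.0167), when the list's median stayed at 0.25. Msmo1 and Cyp51, enzymes of demethylation, differed by 0.53 and 0.46 (SE 0.11 and 0.12, limma adjusted p = 0.0225 and 0.0422). These calls were lost with the trends removed (limma adjusted p = 0.0906 and 0.163) and without knockout replicate 2 (limma adjusted p = 0.0655 and 0.0711). The master regulator Srebf2 differed by 0.25 (SE 0.14) and was not called (limma adjusted p = 0.272). Relative to 5xFAD EGFP the list's median was 0.09 with circRNA and -0.19 in PKR knockout. The number of higher genes was 2 when any one of circRNA replicates 1 and 3 and knockout replicates 1, 2 and 3 was left out, 3 without circRNA replicate 4, and 11 without circRNA replicate 2. Oligodendrocytes make much cholesterol, their markers stood higher with circRNA as given above, and their part in this result was not tested beyond the marker covariate, with which 9 cholesterol genes were higher.

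Respiratory chain genes had a positive difference in 90.7% of 86, against 68.5% of all genes, and 7 were called higher, 8.14% against 4.28%. Their median was 0.20, which is 0.12 above that of all genes. The 13 genes encoded in mitochondrial DNA had the larger differences, all positive with a median of 0.53, or 0.26 with the GC and length trends removed. Their median GC content was 37.1%, and only mt-Nd3 was called. This complex I subunit was at 377, 200.2, 203 and 283 FPKM with circRNA, against 134, 125, 139 and 173 FPKM in PKR knockout, a difference of 0.86 (SE 0.23, limma adjusted p = 0.0455). In 5xFAD EGFP it was at 345 and 337 FPKM, within the circRNA range and above every knockout sample. Its call was lost with the trends removed (limma adjusted p = 0.191) and without knockout replicate 2 (limma adjusted p = 0.127).

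Among the nuclear genes of the respiratory chain, Uqcrq of complex III was at 11.6, 11.9, 12.9 and 10.2 FPKM with circRNA, against 8.70, 8.01, 8.48 and 8.41 FPKM in PKR knockout. It differed by 0.43 (SE 0.08, limma adjusted p = 0.0123) and was the 1 gene of the list called higher with the trends removed (limma adjusted p = 0.0440). Ndufb10 and Ndufb6 of complex I, Cox7b of complex IV and Atp5j of ATP synthase differed by 0.44, 0.46, 0.48 and 0.35, with limma adjusted p-values of 0.0308, 0.0455, 0.0322 and 0.0397. Without knockout replicate 2 none of these 4 was called (limma adjusted p = 0.0974, 0.105, 0.0944 and 0.105), nor was any with the trends removed (limma adjusted p = 0.175, 0.1996, 0.192 and 0.145). With the trends removed the list had 1 higher and 1 lower call and a median of 0.09, and under median-ratio scaling 2 higher and 1 lower. Leaving out 1 sample gave 1 to 5 higher genes, with 1 without circRNA replicate 1 or 3 or knockout replicate 1 or 2, 2 without knockout replicate 3, 3 without circRNA replicate 4 and 4 without knockout replicate 4.

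The proteasome list had 3 higher calls of 35 (8.57% against 4.28% of all genes), Psmb7, Psma7 and Psmd12, with differences of 0.32, 0.28 and 0.26 (limma adjusted p = 0.0128, 0.0499 and 0.0441), and these were not called once the trends were removed (limma adjusted p = 0.155, 0.0666 and 0.358). Without knockout replicate 2, Psma7 and Psmd12 were not called (limma adjusted p = 0.130 and 0.118). Of 81 cytosolic ribosomal protein genes 2 were higher (2.47% against 4.28% of all genes), Rps27l at 0.63 and Rpl15 at 0.40 (SE 0.11 and 0.09, limma adjusted p = 0.0110 and 0.0244), and the list's median was -0.01. Under median-ratio scaling 1 of them was higher and 3 were lower, beside 148 and 697 of all 10817 genes. Rpl15 was not called with the trends removed or without knockout replicate 2 (limma adjusted p = 0.0806 and 0.0633). Genes for ribosomal proteins have many near-identical copies, which makes their counts uncertain. Of 39 RNA processing factors 2 were higher (5.13% against 4.28% of all genes), Hnrnpd at 0.35 and Hnrnpdl at 0.28 (limma adjusted p = 0.00800 and 0.0455). These are 2 related AU-rich element binding proteins, and neither was called with the trends removed (limma adjusted p = 0.0812 and 0.150), nor Hnrnpdl without knockout replicate 2 (limma adjusted p = 0.0833). The relative median of the proteasome list was 0.06, that of the ribosomal list -0.09 (0.02 under quantile normalization) and that of the RNA processing list -0.01 (0.04 under quantile normalization). The median GC content of the RNA processing list was 42.4%, on the side of the trend where genes were higher with circRNA.

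Replication genes made the 3 higher calls among 13 tested cell cycle genes, 23.1% against 4.28% of all genes, and 1 of the 13 was called with the trends removed or under median-ratio scaling. The relative median was 0.12. Mcm4, a subunit of the replicative helicase, was at 2.90, 2.93, 3.47 and 2.89 FPKM with circRNA, against 2.09, 1.87, 2.104 and 2.04 FPKM in PKR knockout. The groups were apart, with a difference of 0.42 (SE 0.06, limma adjusted p = 0.00462), which held with the trends removed (limma adjusted p = 0.0149). Mcm2 and Mcm5 of the same helicase differed by 0.36 and 0.35 (limma adjusted p = 0.0373 and 0.0290) and were not called with the trends removed (limma adjusted p = 0.0843 and 0.121) or without knockout replicate 2 (limma adjusted p = 0.0633 and 0.0723). The proliferation marker Mki67 differed by -0.02 (SE 0.10, limma adjusted p = 0.915).

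Chromatin modifiers were lower in 6 of 48 and higher in 1, or 12.5% and 2.08% beside 1.91% and 4.28% of all genes. Under median-ratio scaling 16 were lower and none higher, beside 697 and 148 of all 10817 genes. The relative median was -0.14. Beside Kdm6b the lower members included Kmt2d, Setd1a and Setd1b, which methylate lysine 4 of histone H3, and the remodeller Chd7. Chd7, Setd1a and Setd1b differed by -0.30, -0.21 and -0.24, with limma adjusted p-values of 0.0235, 0.0416 and 0.0240. Kmt2d was at 15.2, 15.2, 14.3 and 17.1 FPKM with circRNA, against 22.2, 21.5, 23.2 and 19.8 FPKM in PKR knockout, a difference of -0.46 (SE 0.07, limma adjusted p = 0.00654). With the GC and length trends removed Kdm6b was the 1 lower call, and Kmt2d was at a limma adjusted p of 0.144. Leaving out 1 sample gave 3 to 5 lower members, with 3 without circRNA replicate 1, knockout replicate 1 or knockout replicate 2, and 4 without circRNA replicate 2 or 3 or knockout replicate 3. Hdac2, a histone deacetylase, was the higher one, at 0.32 (SE 0.07, limma adjusted p = 0.0198). Without knockout replicate 2, Chd7, Setd1a, Setd1b and Hdac2 were not called (limma adjusted p = 0.0711, 0.105, 0.0711 and 0.0633), nor were they with the trends removed (limma adjusted p = 0.151, 0.352, 0.402 and 0.164).

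Chaperones had 1 lower call of 36 (2.78% against 1.91% of all genes), the heat shock factor Hsf1 at -0.26 (SE 0.07, limma adjusted p = 0.0432), which was lost with the trends removed and without knockout replicate 2 (limma adjusted p = 0.124 and 0.0934). Of 21 endoplasmic reticulum chaperones and sensors 16 had a negative difference (76.2% against 31.5% of all genes), with a median of -0.17. None was called by limma, 4 were lower at an unadjusted p below 0.05, and voom called 2 lower. With the trends removed limma called 1 lower, beside 178 of 10643 genes, and under median-ratio scaling 4, beside 697 of 10817. Hspa5 (BiP), the main chaperone of that compartment, was at 102, 91.2, 92.7 and 71.1 FPKM with circRNA, against 129.7, 97.7, 187 and 120.3 FPKM in PKR knockout. Its groups overlapped, and the difference was -0.55 (SE 0.20, limma adjusted p = 0.113). Hspa1a, a cytosolic heat shock protein, differed by 0.98 (SE 0.39, limma adjusted p = 0.139) with wide overlap. The relative median of the chaperone list was -0.17. Glycolysis and hypoxia genes had no call by limma or voom among 27, and 1 was lower at an unadjusted p below 0.05. Lysosomal genes had 1 higher call of 51 (1.96% against 4.28% of all genes), the cholesterol exporter Npc1 at 0.35 (SE 0.08, limma adjusted p = 0.0289), not called with the trends removed or without knockout replicate 2 (limma adjusted p = 0.109 and 0.0712). The genes with a Zfp symbol and a number had 7 higher and 4 lower calls of 254. These are 2.76% and 1.57%, against 4.28% and 1.91% of all genes. Under median-ratio scaling 1 was higher and 15 were lower, beside 148 and 697 of all 10817 genes. With the trends removed the counts were 0 and 5, beside 60 and 178 of 10643. The relative medians of the glycolysis, lysosomal and Zfp lists were -0.07, -0.07 and 0.01, and under quantile normalization 0.02, 0.02 and -0.02. The largest of the Zfp calls was Zfp36, which is no C2H2 zinc finger gene and entered through its symbol.

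**Figure D5:**
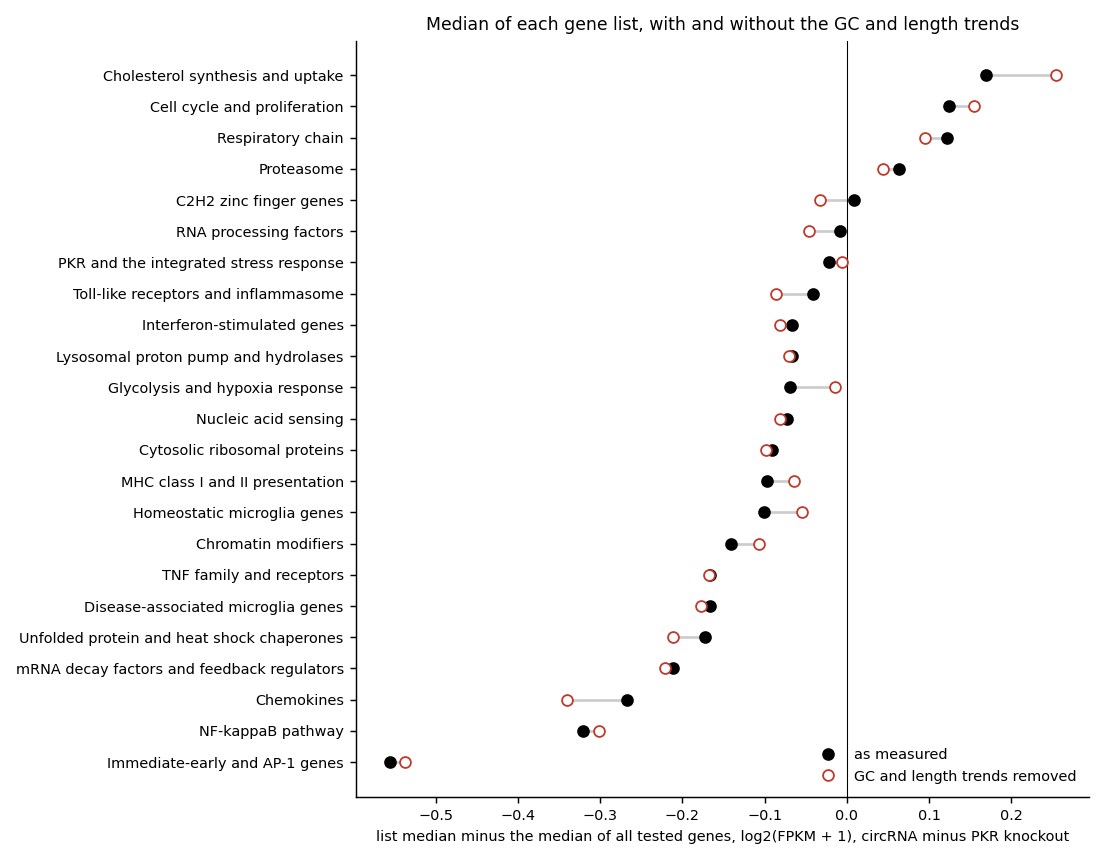
Median difference of each gene list minus the median of all tested genes, on the log2(FPKM + 1) scale, circRNA minus PKR knockout (horizontal axis), as measured (filled) and with the GC content and length trends removed (open). The immediate-early list stands at -0.56 and -0.54 and the cholesterol list at 0.17 and 0.25.

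Among the largest differences of all, several genes belonged to none of the lists. Iqcn, whose product carries a calmodulin-binding motif, had the largest negative difference. It was at 1.65, 0.640, 1.21 and 1.31 FPKM with circRNA, against 6.69, 6.59, 5.73 and 4.84 FPKM in PKR knockout, a difference of -1.67 (SE 0.17, limma adjusted p = 0.00147). Fam71a was at 2.13, 1.91, 1.84 and 1.82 FPKM against 5.47, 6.08, 7.26 and 8.36 FPKM, a difference of -1.40 (SE 0.16, limma adjusted p = 0.00147). Both kept the order without overlap, and in 5xFAD EGFP they were at 1.84 and 3.57 and at 2.17 and 4.06 FPKM. Fam71a lies downstream of Atf3 on the same strand of chromosome 1 (191162584 to 191164817, Atf3 191170296 to 191218039), and Atf3 was also lower. Whether reads from Atf3 were counted in Fam71a was not tested. Eps8l1, which is related to a regulator of actin, showed another pattern. It was at 0.893, 2.65, 1.73 and 0.717 FPKM with circRNA, 5.01, 5.05, 6.49 and 4.67 FPKM in PKR knockout, and 4.59 and 4.86 FPKM in 5xFAD EGFP. The difference between circRNA and PKR knockout was -1.39 (SE 0.27, limma adjusted p = 0.0155), and relative to EGFP it was -1.26 with circRNA and 0.13 in PKR knockout. Rpl9-ps1, at -1.37, is a ribosomal pseudogene by its symbol, while the annotation used here classes it as protein coding. Its reads can belong to the parent gene, so its value is uncertain. It lies downstream of Ccl3 on the same strand of chromosome 11 (83645046 to 83645621, Ccl3 83647844 to 83649355). The source of its reads was not tested.

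On the higher side, Myoc, which encodes the secreted protein myocilin, was at 5.44, 2.68, 4.55 and 2.18 FPKM with circRNA, against 0.668, 0.510, 0.794 and 1.22 FPKM in PKR knockout. Dynlrb2, a dynein light chain of motile cilia, was at 2.25, 1.09, 1.93 and 4.26 FPKM against 0.467, 0.771, 0.472 and 0.176 FPKM. Both were near their level in 5xFAD EGFP with circRNA, 5.35 and 2.51 FPKM for Myoc and 2.35 and 1.80 FPKM for Dynlrb2. The differences were 1.35 (SE 0.26) and 1.13 (SE 0.26), with limma adjusted p-values of 0.0165 and 0.0257, and neither was called without knockout replicate 2 (limma adjusted p = 0.0537 and 0.0531). Dynlrb2 was not called with the trends removed either (limma adjusted p = 0.0906). These are not microglial genes as a rule, and the share of other cells in them was not tested. The transthyretin gene Ttr, which the choroid plexus expresses strongly, ran from 350.5 to 2212 FPKM with circRNA and from 202 to 815 FPKM in PKR knockout, with overlap.

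Olfml2b, an extracellular matrix protein, was at 4.77, 4.24, 5.07 and 4.31 FPKM with circRNA, against 2.56, 2.65, 2.94 and 2.28 FPKM in PKR knockout. It differed by 0.63 (SE 0.11, limma adjusted p = 0.00951) and was called in the 20 alternatives that tested it. Mthfd2, a mitochondrial enzyme of folate metabolism and a known target of Atf4, was at 2.62, 2.37, 4.90 and 2.69 FPKM against 1.34, 1.98, 1.46 and 1.68 FPKM. CircRNA replicate 3 was far above the rest of its group, and the difference of 0.63 (SE 0.15, limma adjusted p = 0.0345) was lost in 9 of the 20 alternatives that tested it, among them the trends removed and knockout replicate 2 left out (limma adjusted p = 0.0707 and 0.0606). Casc4 and Pigp, the latter in the synthesis of membrane anchors, differed by 0.63 and 0.59 (SE 0.11 and 0.12, limma adjusted p = 0.00932 and 0.0185). Tmem178 and Sptssa, a membrane protein of the endoplasmic reticulum and a subunit of the enzyme that starts sphingolipid synthesis, differed by 0.56 each (limma adjusted p = 0.0295 and 0.0199). Without knockout replicate 2, Pigp, Tmem178 and Sptssa were not called (limma adjusted p = 0.0594, 0.0704 and 0.0629), and with the trends removed Tmem178 and Sptssa were not (limma adjusted p = 0.0806 and 0.0909). Dynlt1b and Sap18b, at 0.73 and 0.58, have near-identical copies in the genome and are uncertain. Neither was called without knockout replicate 2 (limma adjusted p = 0.0531 and 0.106), nor Sap18b with the trends removed (limma adjusted p = 0.190).

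The calls were spread over the genome. Within 10 Mb of Eif2ak2 72 genes were tested, of which 6 were higher (8.33%) and 1 was lower (1.39%) with circRNA, Eif2ak2 included, against 4.28% and 1.91% of all genes. Tmem178 is one of the 6. On the X chromosome 22 of 314 genes were higher (7.01%) and none lower by limma or voom, with 3 lower at an unadjusted p below 0.05, and its genes had a median GC content of 45.1%. With knockout replicate 2 left out, the sample with no Y-linked signal, 10 were higher (3.18%) against 0.777% of all genes. On chromosome 7, with a median of 52.8%, 13 were higher (1.59%) and 28 lower (3.43%) of 817. The X chromosome stood above the 4.28% of all genes called higher and chromosome 7 below it. Among the autosomes, chromosomes 3, 12, 16, 18 and 14 had larger shares called higher than X, at 8.56%, 8.24%, 7.49%, 7.27% and 7.11%. Without knockout replicate 2 the other chromosomes were not counted.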

How the data were processed

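Total RNA was depleted of ribosomal RNA with RiboMinus and made into stranded libraries for the NovaSeq, per the labels' protocols. The authors deposited 1 table of FPKM values for 13 samples. HISAT2 2.1.0, Bowtie2 2.3.5, featureCounts 1.5.1 and the mm10 build are named in the submitters' processing notes; the gene annotation and the strand setting are not given in the sources used here. Gene symbols were matched to GENCODE M21 for GC content, length and position. Genes averaging 1 FPKM or more were fitted as log2(FPKM + 1) with limma 3.58.1 in R 4.3.3, with 1 mean per group over all 13 samples (9 residual degrees of freedom), a trended prior and Benjamini-Hochberg adjustment at 0.05. This scale understates the change of low genes. The fit was tested on simulated data.

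FPKM steps gave the fragments behind each sample: 91.1% to 93.1% of low values were whole fragments within 0.02. A gene of 2 kb at 1 FPKM rests on 90.5 to 140 fragments, a counting error of 8.46% to 10.5%, and replicates differed by more than that (chi-square per degree of freedom 22.7 to 104 within the 2 groups). The p-values test the difference between the groups against the spread between samples, pooled over all 13 samples of the 4 groups. The groups, gene lists and tests were chosen with earlier results of these data known, so a list's count is no independent evidence of its direction. Named were Eif2ak2, the 15 largest differences per direction among called genes without overlap (predicted genes left out), and per list up to 6 called members per direction and its defining members. Promoters and starts came from RefSeq. Alternatives were another pseudocount (0.1), filters (0.1 and 5 FPKM), 3 other scalings, the 8 samples alone, a replicate block, GC and length trends removed by loess (span 0.5), limma sample weights and each sample left out. Voom on recovered fragments and a covariate for other-cell markers were chosen after seeing the data.
Some genes are not reported here.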

Additional observations from a re-analysis of the deposited data

Results flagged for a closer look

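Among 274 groups of 4 values, from the circRNA and PKR knockout samples for 129 named genes and the summed markers of 8 cell types, 9 held a sample far from the other 3 by Dixon's test at the 95% level, which chance alone gives in about 1 of 20 groups. CircRNA replicate 3 was the sample apart in 5 of them, always on the high side. Gpnmb was at 47.5 FPKM in it against 28.8 to 31.0 in the other 3, Mthfd2 at 4.90 against 2.37 to 2.69, Mcm4 at 3.47 against 2.89 to 2.93, Psma7 at 10.4 against 8.44 to 8.72 and Tmem178 at 3.73 against 2.53 to 2.71. CircRNA replicate 4 was low in Nfkbia, at 60.3 FPKM against 77.8 to 81.0, and in Rps27l, at 8.52 against 10.8 to 11.1. PKR knockout replicate 3 was low in Dhcr7, at 2.20 FPKM against 2.85 to 2.95, and PKR knockout replicate 1 was high in Hsf1, at 5.86 against 5.29 to 5.37.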

How the results depend on the processing

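The 670 calls became 309 with a 5 FPKM filter, 238 with the GC and length trends removed, 3161 with limma sample weights (0.197 to 3.17, the highest for circRNA replicate 1 and the lowest for a wild type sample) and 1345 with the other-cell marker covariate. The 463 higher calls became 161 with the 5 FPKM filter, 148 under median-ratio scaling, 164 under quantile normalization, 60 with the trends removed, 2191 with sample weights and 948 with the marker covariate. The 207 lower calls became 697 under median-ratio scaling, 344 under same-sum rescaling, 347 under quantile normalization, 970 with sample weights, 335 by voom on recovered fragments (998 calls in all) and 397 with the marker covariate. Leaving out 1 sample gave 147 to 506 calls, 70 to 362 higher and 77 to 176 lower. A replicate block gave 448 calls, 294 of them higher, and with the trends also removed 218 and 37. The labels do not pair the numbers: deviations of same-numbered samples correlated with a mean r of 0.19 (0.036 to 0.55), 2 of 4 pairs were over 0.1, and 1 of 4 circRNA samples correlated best with its own number. Of 650 gene list medians relative to all genes under these alternatives, 631 moved by less than the SD between replicates, and 45 in 17 lists changed sign. One of these began further from 0 than that SD: the astrocyte markers, 0.39 above all genes, came to -0.0312 with the marker covariate, which is built from them. The immediate-early list (-0.63 to -0.50), the NF-kappaB list (-0.46 to -0.25) and the cholesterol list (0.15 to 0.30) kept their sign in all 21. No named gene with a call changed direction. Of the 129 named genes, calls were lost in 47, 26, 39 and 23 without circRNA replicates 1 to 4 and in 50, 48, 43 and 28 without knockout replicates 1 to 4, and in 47 with the trends removed. The causes of these changes were not tested.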
